A study of Mus musculus with 10 samples.

Results

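Among the m6A peaks of cultured mouse hypothalamic neural progenitor cells, 488 combined good input coverage with a high yield of antibody-bound RNA. They were selected on their deposited reads: at least 100 input reads, and at least 6 immunoprecipitated (IP) reads for each input read. Of the 21195 peaks in the map, 16930 had at least 100 input reads and are called well-covered here. The 488 high-ratio peaks were 2.88% of these, and the other 16442 well-covered peaks serve as the comparison. Ratio, reads and enrichment chose the peaks, so those values are given as a description with no test.

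The cells came from the hypothalamus of Mettl14 f/f embryos at E14.5 and grew with FGF2 and EGF at 20 ng/ml each. Both groups carried the floxed Mettl14 allele, and both received lentivirus, with the medium replaced after 24 hours: lenti-EGFP-Cre, whose recombinase removes the floxed part of Mettl14, for the knockout, or lenti-EGFP for the control. EGFP-positive cells were sorted after 72 hours, so each group holds whatever cells the virus entered. Polyadenylated RNA was broken into fragments of about 80 nt and bound with an m6A antibody, which gave 4 control IP, 4 knockout IP and 1 input library of each genotype. The deposited table has a pooled IP value and a pooled input value for each peak and names neither genotype nor library. Knockout and control therefore could not be compared, no value has a replicate error, and no library's depth is known.

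The mark m6A is a methyl group that a nuclear complex built on Mettl3 and Mettl14 places on adenosines of messenger RNA, with Rbm15 and Rbm15b among the adaptors that bring the complex to RNA. YTH proteins read the mark, often leading to faster decay of the transcript, and Fto and Alkbh5 can remove it. In mammalian cells it is known mainly from long internal exons and the neighbourhood of stop codons, and in neural progenitors Mettl14 is known for its part in cell cycle progression and the timing of neurogenesis.

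The writer complex favours a short sequence around the adenosine, of which GGACT is the classic form. Sequence could be read here only at transcript starts, from the RefSeq promoter table of GRCm38.p6, and 37 starts lay within 33 of the high-ratio peaks. GGACT, read on the sense strand, lay in the first 50 bases of 6 of these 37 starts (16.2%). The same letters were found at 49 of 875 starts in other well-covered peaks (5.6%) and at 1891 of all 32851 starts in the table (5.76%). Its reverse complement AGTCC, which marks the motif on the opposite strand and cannot overlap it, was at 5 of the 37 starts (13.5%), 5.37% of starts in other well-covered peaks and 4.87% of all starts. Both forms had a higher share at these few starts than elsewhere, and a match describes the letters only. The 6 starts with the sense motif are shown because they are the stretches of high-ratio peaks whose letters could be read and that hold the writer's motif. Each line has 30 bases, 5′ to 3′ on the gene's own strand, which is the plus strand for all 6, with GGACT in capitals.
Bdnf, chr2:109722939-109722968: cattcctcccaaGGACTatgctgctgactt
Insyn1, chr9:58488603-58488632: GGACTttccccaccgttgatggagccgact
Rbbp6, chr7:122970584-122970613: accccgcggggtcattcGGACTctaacgtg
Pcdh17, chr14:84443581-84443610: gggagagaatccGGACTgcgagcccggcgg
LOC102637806, chr1:89932083-89932112: gttcccctttgcGGACTgctggatggagct
Fbxo48, chr11:16951381-16951410: ttcaaatccggaGGACTgaaatcgcgggag

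These 6 peaks differed widely in length and depth. Bdnf, the neurotrophin brain-derived neurotrophic factor, had a peak of 15070 bases with 505 input and 4207 IP reads, a ratio of 8.33. Insyn1, an inhibitory synapse factor, had 733 input and 5328 IP reads (7.27) in a peak of 450 bases that began at the transcript start itself. The Rbbp6 peak had 3460 input and 25128 IP reads (7.26), and that of Pcdh17, a protocadherin, 128 and 830 (6.48). Only the Insyn1, Pcdh17 and LOC102637806 peaks were shorter than 1000 bases, so in the other 3 the printed window is a small part of the peak.

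The ratios crowded just above the threshold. Their median was 6.56, with quartiles of 6.26 and 7.13, and 345 of the 488 lay from 6 to under 7. A ratio of at least 8 was reached by 44 peaks and of at least 9 by 10. The other well-covered peaks had a median ratio of 2.06. These ratios are not corrected for depth, so they rank peaks and do not measure how much of a transcript is methylated. Intervals given with a ratio are exact Clopper-Pearson 95% intervals that take the deposited numbers as counts. They cover counting error only: the libraries had no stated molecular identifiers, so PCR copies of a molecule may count as separate reads. For 208 of the 488 peaks the interval reached below 6.

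Their input depth was near that of other well-covered peaks, while their IP reads, which the rule uses, were higher. The median input was 807.5 reads, against 690 in the other well-covered peaks, and the median IP was 5648.5 reads against 1354.5. At least 1000 input reads were counted in 218 of them and at least 10000 IP reads in 160. Together they held 7.77% of the IP reads of all peaks and 3.17% of the input reads. By input class the share of peaks that reached the ratio was 3.63% at 100 to under 200 reads, 2.19% at 200 to under 500, and 3.87% at 5000 or more. Below the coverage minimum, 760 of 4260 peaks with at least 1 input read had a ratio of 6 or more, and 5 peaks had 0 input reads. Over all peaks with an input read, 5.89% reached that ratio.

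**Figure D1:**
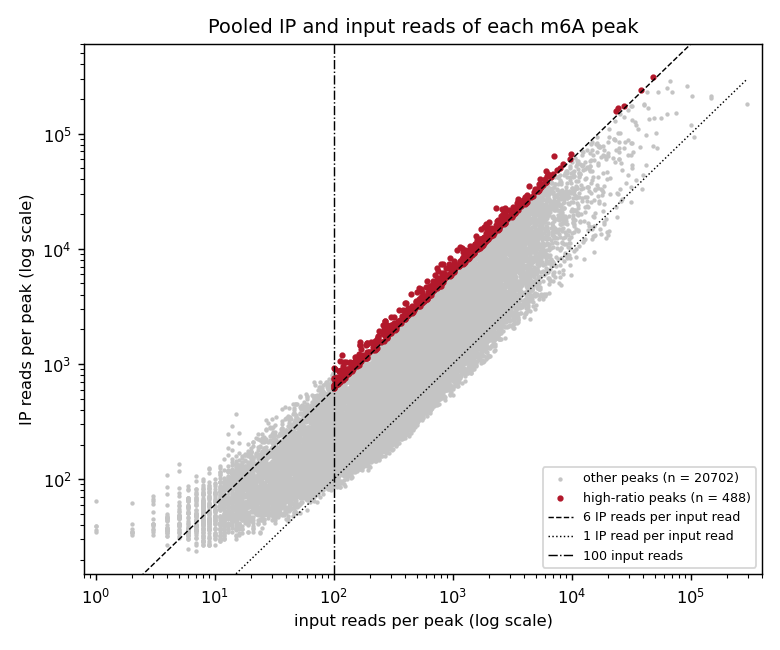
Pooled IP reads against pooled input reads of each peak with at least 1 input read, both on log axes, with the 488 high-ratio peaks in red, other peaks in grey, and lines at a ratio of 6, a ratio of 1 and 100 input reads. The red points run along the upper edge of the cloud from 100 to 48540 input reads.

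Just inside the threshold lay Mob3c (1244 input and 7473 IP reads), Ankrd49, Cdh6, Dhx33 and Zfp945, all with ratios of at most 6.01. Just outside it lay Zfp420 (536 input and 3215 IP reads), Mbd4, Smg1, Siah2 and Nav3, with ratios of at least 5.99 that fell short of 6. Kcnj4, Il20rb and Fhdc1 entered with exactly 100 input reads, at ratios of 9.25, 7.46 and 6.56. Mterf1a, an unnamed peak on chromosome 15 and Zfp777 had 99 input reads and ratios of 8.51, 8.34 and 8.10, and stayed out.

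The highest ratios belonged to genes of many kinds. Gm15382, a pseudogene on chromosome 15 (91822987 to 91823086), was first with 117 input and 1196 IP reads, which gave 10.2 IP reads per input read (8.45 to 12.5). A pseudogene can take reads from the gene it resembles, so the source of these reads is uncertain. Usp47, a deubiquitinating protease, followed with 2302 input and 22399 IP reads, and its ratio of 9.73 (9.32 to 10.2) was the better measured. Gon4l, a nuclear corepressor, had 165 input and 1558 IP reads (9.44), and Rpp38, a protein subunit of ribonuclease P, 794 and 7456 (9.39). The Gon4l peak overlapped a peak on the other strand, so part of its reads may belong to a neighbour. The intervals of these leading 4 overlapped, so their order is not resolved by counting.

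Next in order of ratio were 11 more peaks. Rgs7bp, which anchors RGS proteins at the membrane, had 113 input and 1053 IP reads (9.32). Kcnj4, an inwardly rectifying potassium channel, had 100 and 925 (9.25), and Tnfaip8l1 had 743 and 6784 (9.13). The Tnfaip8l1 peak also overlapped a peak on the other strand. Chchd3, a protein of mitochondrial cristae, had 448 and 4059 (9.06). A peak at chr19:4801712-4805596 with 1155 input and 10406 IP reads (9.01) overlapped both Rbm14 and Gm21992 and was left unnamed. Further down were the long noncoding RNAs Gm33782 (9.0) and 2900093K20Rik (8.88), the zinc finger gene Zfp937 (8.89), Syne1, which links the nucleus to the cytoskeleton (8.87), and Eif4enif1, a repressor of translation (8.78). Lcorl, a nuclear cofactor, stood out among the 15 for its depth, with 7104 input and 63669 IP reads and a ratio of 8.96 (8.75 to 9.19).

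**Figure D2:**
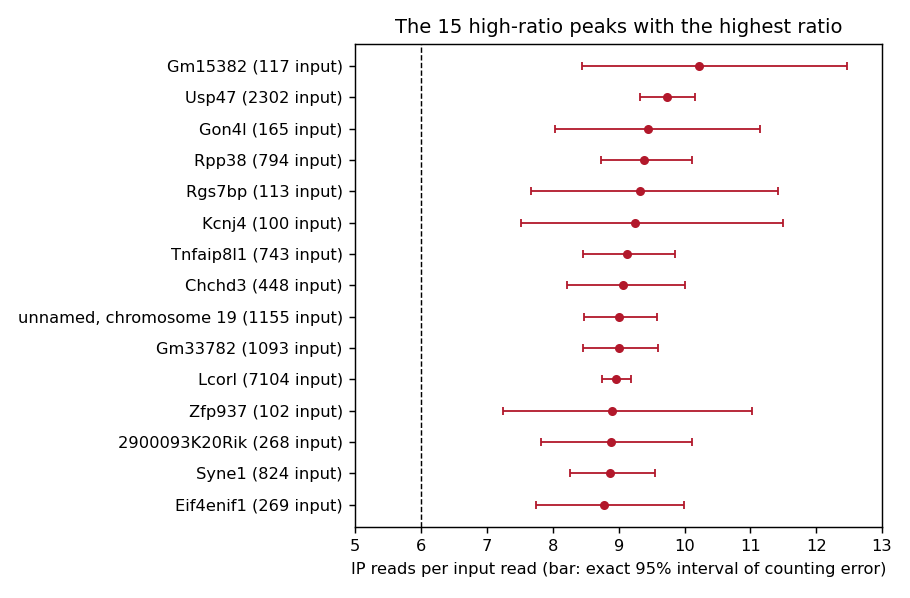
Ratio of IP to input reads for the 15 peaks with the highest ratio, with points for the ratio, bars for the exact 95% interval of counting error, the input reads beside each name and a dashed line at 6. All 15 intervals lie above 6, and those of peaks with about 100 input reads are several times as wide as that of Lcorl.

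Of the 10 peaks with the most IP reads 9 had ratios under 7, and Lcorl, described above, had 8.96. Cspg5, a chondroitin sulfate proteoglycan of the brain, led with 48540 input and 312600 IP reads (6.44, interval 6.38 to 6.50). Fmn2, a formin that nucleates actin, had 38136 and 238642 (6.26). Pou3f3, a POU-domain transcription factor of neural progenitors, had 27208 and 173317 (6.37), and Lrrc4b, a synaptic adhesion protein, 24498 and 168389 (6.87). Tbx3, a T-box transcription factor of the developing hypothalamus, had 23705 and 155979 (6.58). The next were Basp1, a growth cone membrane protein, with 66368 IP reads, Lcorl, 1700030K09Rik with 60371, Tmem43 with 54028 and Ccdc173 with 50517. The 1700030K09Rik peak overlapped a peak on the other strand, and the Pou3f3 peak carried 2 gene identifiers, so part of their reads may belong to a neighbour.

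Of the cell type markers checked, Tbx3 alone held a high-ratio peak. A peak of any ratio was found in 10 of 15 neural progenitor markers, among them Nes, Sox2 and Pax6, and in 7 of 15 hypothalamic markers. It was found in 5 of 12 neuronal, 5 of 9 astrocyte and tanycyte, 5 of 8 oligodendrocyte-lineage and 1 of 13 microglial, blood and vascular markers. Vim, a defining progenitor marker, had no named peak. Nes and Sox2 had 63 and 10 input reads in their deepest peaks, against 34429 for the proliferation marker Mki67 and 68971 and 43210 for Olig1 and Olig2, which mark the oligodendrocyte lineage and also some progenitors. A peak needs methylated RNA as well as expression, so these counts are only a partial check of the labelled cell type.

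The authors' own enrichment measure ranked the peaks differently. The high-ratio peaks had a median log2 fold change of 4.58, from 3.18 to 6.05, by the authors' deposited table, against 2.88 for the other well-covered peaks. By log2 fold change in the authors' deposited table the 3 highest stood at 6.05 for Zfp937, 6.04 for Sdhd, a subunit of succinate dehydrogenase, and 5.93 for Lcorl. Fam171a2 (3.18) and Fzd8 (3.25), with 5115 and 393 input reads, had the lowest log2 fold changes in the authors' deposited table. Taking the 488 well-covered peaks with the highest log2 fold change in the authors' deposited table instead, 166 were shared with the ratio rule. The normalization behind that fold change was not given in the sources used here, so the ratio and the fold change are separate descriptions.

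An identical pair of values shows the gap. On chromosome 3 the plus-strand peak of the pseudogene 5830417I10Rik (88817114 to 88817563) and the minus-strand peak of the long noncoding RNA 1500004A13Rik (88825286 to 88830193) both had 167 input and 1451 IP reads. They do not overlap each other. Their log2 fold changes in the authors' deposited table were nevertheless 4.50 and 5.15. It was the only pair in the set with equal input and equal IP reads, and whether both rows rest on the same reads was not tested.

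Of the 488 peaks, 459 could be named and lay in 456 genes, of which 428 were protein-coding and 23 were long noncoding RNA genes. These 456 were 5.26% of the 8663 named genes with a well-covered peak. Long noncoding RNA genes held 5.01% of the named high-ratio peaks and 4.09% of the other named well-covered peaks. Among them were Junos, next to the Jun gene, and Trp53cor1, a p53 target, both picked as examples after their values were seen. The plus strand held 247 of the 488. On the autosomes and X the share of well-covered peaks that reached the ratio ran from 2.05% on X (10 of 488) to 4.54% on 19 (24 of 529). None of the 4 well-covered peaks on Y and none of the 6 mitochondrial ones reached it.

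Several peaks could not be tied to a gene. Of the 29 unnamed, 6 overlapped no RefSeq gene, 5 overlapped protocadherin genes of the chromosome 18 cluster and 18 overlapped other genes. In the protocadherin cluster, where many first exons share a common end, peaks at chr18:37144728-37146527 and chr18:37744515-37747123 carried 14 and 26 gene identifiers, with ratios of 7.19 and 6.10. The second highest unnamed ratio, 8.31 on 1569 input and 13031 IP reads, was at chr7:89510007-89510956 and overlapped Prss23. It lay on the plus strand, inside the minus-strand high-ratio peak of Prss23 (3181 input and 19786 IP reads, 6.22). Part of its reads may therefore belong to Prss23. Among all 488, 48 carried several identifiers (9.84%, against 8.93% of other well-covered peaks) and 71 overlapped a peak on the other strand (14.55%, against 13.7%). Only some are marked where they are named. Peaks of Lrfn1, Ano6, Fam118a, Zkscan17 and Trim7 and the unnamed peak at chr19:4801712-4805596 also overlapped a peak on the other strand. Those of Usp10, Tnrc6b, G3bp1, Tmem42 and Trps1 also carried 2 identifiers.

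In 282 of the 456 genes at least 1 more peak was well-covered. The highest ratio was a median 2.38 times the next highest, with quartiles of 1.68 and 4.17. All other well-covered peaks had ratios under 3 in 150 of the 282 genes, while in 31 the next reached at least 5. The median of the next highest ratios was 2.74. Each of these is the maximum of a gene's remaining well-covered peaks, so it cannot be compared with the median of 2.06 over single peaks. The gap within a gene is partly built in, since the rule takes the highest ratios. Another 131 genes had the high-ratio peak as their only peak, which was 28.5% of named high-ratio peaks, against 24.1% of the other named well-covered peaks.

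The widest gap was in Tmem189, an enzyme of plasmalogen synthesis, with ratios of 7.80 and 0.834. That Tmem189 peak carried 2 identifiers. The genes that follow are examples and not the next widest. Rgs2, a regulator of G protein signalling, had 7.84 (on 110 input reads) and 0.915, and Gpr19, an orphan receptor, 8.13 and 1.02. Tbx3 had 6.58 in its peak of 200 bases near the 5′ end and at most 1.23 in its other well-covered peaks. In Cspg5 the ratios were 6.44 and 1.27, and in Fto 6.13 and 0.960. The high-ratio peak also had the most input reads of its gene in 155 of the 282 genes. In the others a peak with at least as many input reads in total, not scaled to span, had a lower ratio.

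**Figure D3:**
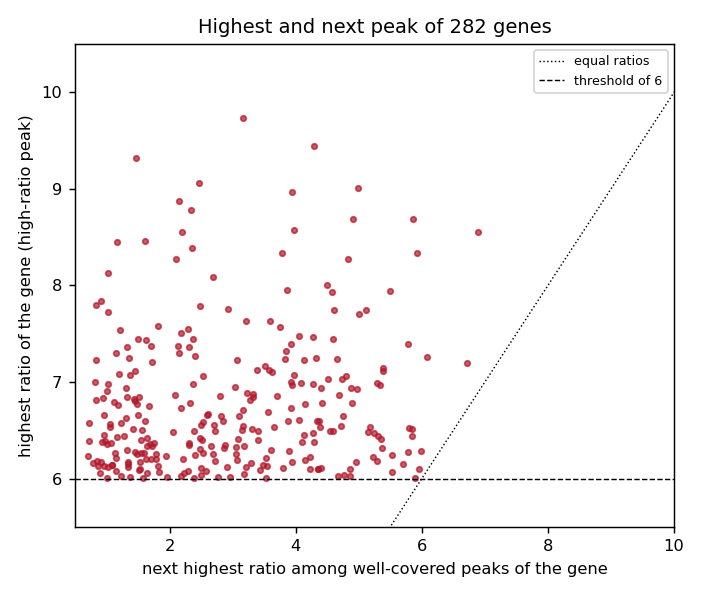
Highest ratio of each of 282 genes against the next highest ratio among its well-covered peaks, with a dashed line at 6 and a dotted line of equal ratios. Most points lie far left of the dotted line, and the median of the highest over the next is 2.38.

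Kmt2e, Pde4b and Rbbp6 held 2 high-ratio peaks each. Kmt2e, a chromatin protein of the trithorax family, had neighbouring peaks at chr5:23434641-23446557 (1509 input and 10143 IP reads, 6.72) and chr5:23446583-23450185 (2095 and 15072, 7.19). Pde4b, a cyclic AMP phosphodiesterase, had peaks of 75 and 125 bases in the last of 10 equal bins of the gene, 17428 and 17128 bases from its 3′ end, at chr4:102589773-102589847 (2568 and 21978, 8.56) and chr4:102590023-102590147 (1828 and 12606, 6.90). In these 2 genes the peaks were close neighbours. Rbbp6, a ubiquitin ligase that binds the retinoblastoma protein, had a peak over its start, whose transcript start is printed above, and another at its 3′ end at chr7:123000468-123002557 (2750 and 16712, 6.08). The peak over the start lay mostly upstream of Rbbp6 and overlapped the long noncoding RNA gene 4930413G21Rik and a peak on the other strand, so part of its reads may belong to a neighbour.

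The high-ratio peaks were of middle length more often than other well-covered peaks. Each peak is a single block of genome, so a peak that crosses an intron includes it in its span. The median span was 1575 bases, against 1025. Spans over 1000 and up to 10000 bases made up 52.5% of the high-ratio peaks (256 of 488) and 36.8% of the others. Spans of at most 1000 bases made up 33.8% (165 of 488, 95% interval 29.6 to 38.2) and 49.6%. Above 10000 bases the shares were nearly equal, at 13.7% and 13.6%. Read the other way, 4.06% of well-covered peaks over 1000 and up to 10000 bases reached the ratio, against 1.97% of those over 200 and up to 1000 bases and 2.01% of those of at most 200. The 95% interval of the first share, 3.58 to 4.57, lay above those of the shorter classes, which overlapped each other, and it overlapped that of peaks over 10000 bases (2.91%, 2.27 to 3.69). Peaks are not replicates and no test was made.

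The longest were in Fgf14, a modulator of sodium channels (484232 bases, 4231 input and 27190 IP reads), Nxph1, a neurexin ligand (296729 bases, 7015 and 44356), and Trps1, a GATA-type repressor (159181 bases, 1449 and 8843). The shortest spanned 75 bases, about the length of an RNA fragment, and among these Syne1, Pde4b and Pard3, a cell polarity scaffold, had the highest ratios. Pard3 had 1227 input and 9357 IP reads, and Syne1 824 and 7311. A peak of either extreme could thus hold many reads in total, and these totals are not scaled to span.

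Along the gene, the high-ratio peaks were not more concentrated at the 3′ end than other peaks. Each gene span was cut into 10 equal bins from 5′ to 3′. The last bin took the midpoint of 146 of the 390 that lay inside a protein-coding gene (37.4%, 95% interval 32.6 to 42.5), against 39.0% of 13557 other well-covered peaks. Bin 9 held 9.23% against 13.3%, and bin 1 4.36% (17 peaks) against 7.50%. Bin 4 held more, 7.44% against 4.85%. Gene spans include introns, and exons and stop codons were not analysed here. A peak ending within 1000 bases of the gene's 3′ end was seen for 29.7% of the high-ratio peaks and 27.3% of the others.

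Short genes departed from this. In genes of at most 10000 bases, 4 of 73 high-ratio peaks had a midpoint in the last bin (5.48%, 95% interval 1.51 to 13.4), against 20.9% of 1821 other well-covered peaks. In the same genes 13 of the 134 well-covered peaks of bin 4 reached the ratio (9.70%), against 4 of 385 in the last bin (1.04%). In genes over 50000 bases the last bin held 54.9% of the high-ratio peaks (89 of 162) and 47.3% of the others. Peaks covering at least 50% of their gene reached the ratio in 51 of 816 cases (6.25%), and other peaks inside genes in 339 of 13131 (2.58%). Peaks that cover much of a short gene have midpoints near its middle, so span and place cannot be told apart in these genes.

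In the first bin the highest ratios were in Glb1, lysosomal beta-galactosidase (8.55), Pik3r1, a regulatory subunit of phosphoinositide kinase (7.75), and Klf13, a Krüppel-like factor (7.58). The Glb1 peak carried 2 identifiers and also overlapped Tmppe, which starts beside Glb1, so its gene is uncertain. Bin 6 was led by Syne1 (8.87), Mars2, the mitochondrial methionyl-tRNA synthetase (7.72), and Pard3 (7.63), and bin 5 by Ttc9c (7.23), Cd248, a mesenchymal surface protein also called endosialin (7.11), and Bcorl1, a transcriptional corepressor (7.03). In the last bin Rgs7bp (9.32), Chchd3 (9.06) and Eif4enif1 (8.78) led.

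**Figure D4:**
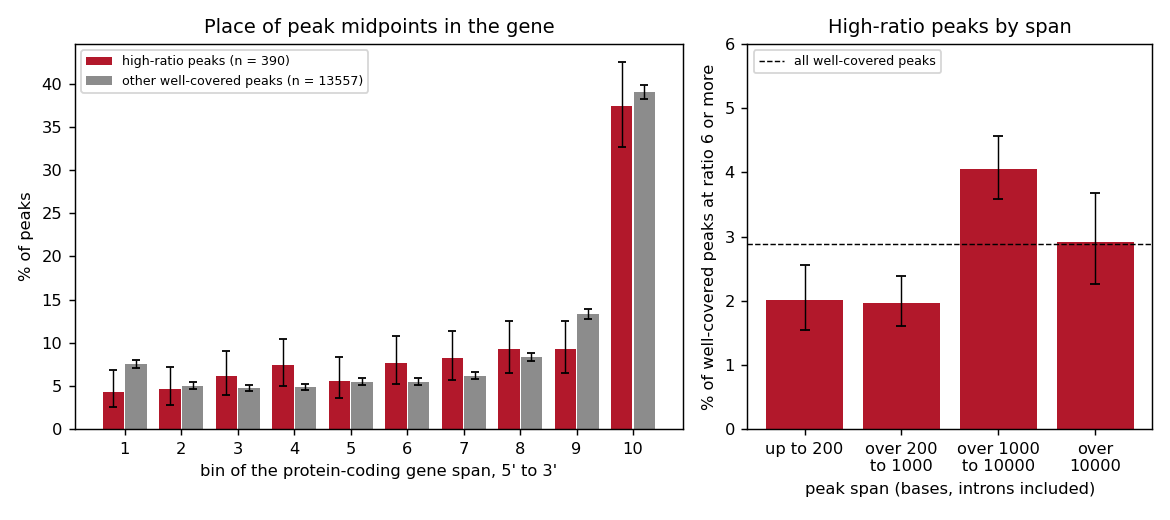
Left, percent of 390 high-ratio and 13557 other well-covered peaks with their midpoint in each of 10 equal bins of the protein-coding gene span, 5′ to 3′; right, percent of well-covered peaks that reached the ratio by peak span in bases, with a dashed line at 2.88% and bars on both panels for exact 95% intervals. The last bin holds 37.4% and 39.0%, and spans over 1000 and up to 10000 bases stand at 4.06%.

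Gene groups were set by symbol. A group's share of genes with a high-ratio peak is read against 5.26% of all named genes with a well-covered peak. A symbol list can miss genes of its kind and take in others, so each share describes the listed genes only. In all, 172 of the 456 genes belonged to at least 1 of 20 groups (37.7%), against 31.3% of all 8663. The group shares are counts with no test, and the intervals of 18 of the 20 groups included 5.26%. A group picked by ratio may not be the group picked by the authors' fold change. The plot of genes by list shows the share among the 488 highest peaks of that measure for every group, and the text gives the count for some.

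The m6A machinery itself held 3 high-ratio peaks among 20 genes (15%, 95% interval 3.21 to 37.9). Rbm15, a writer adaptor, had 966 input and 6309 IP reads in its peak (6.53, interval 6.10 to 7.0). Rbm15b, its relative, had 4736 and 28982 (6.12, interval 5.93 to 6.31), in a peak that carried 2 identifiers. Fto, the demethylase, had 251 and 1539 (6.13, interval 5.36 to 7.04), in a peak of 77119 bases in bin 2 of the gene. For 2 of the 3 the interval reached below 6. Of this group 2 other genes were among the highest by log2 fold change in the authors' deposited table (10%, against 4.99% of all named genes).

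Of 75 listed G protein-coupled receptor genes with a well-covered peak, 9 had a high-ratio peak (12%, 95% interval 5.64 to 21.6). The symbol list left out Gper1, another such receptor with a high-ratio peak (6.18). Celsr2, a cadherin-type receptor of planar polarity, had 709 input and 5866 IP reads (8.27). Gpr19 had 1927 and 15661 (8.13), Fzd5, a Wnt receptor, 318 and 2559 (8.05), and Adgrl2, a latrophilin, 5645 and 36619 (6.49). Among the highest by log2 fold change in the authors' deposited table were 4 of the 75 (5.33%), close to the share of all genes by that measure (4.99%). The Wnt, Notch, Hedgehog and BMP group had 8 of 82 (9.76%, 95% interval 4.31 to 18.3), among them 3 Frizzled receptors, Fzd5, Fzd4 (684 and 4347, 6.36) and Fzd8. The bone morphogenetic protein Bmp3 (6.51) and the protease Adam10 (6.36), which cuts Notch, were also in it. Fzd4, Fzd5, Fzd8 and Gpr161 were counted both here and among the G protein-coupled receptors, so the shares of these groups are not separate observations. Of the 82, 3 were among the highest in log2 fold change by the authors' deposited table (3.66%), and so were 0 of 11 Fzd genes.

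Among ion channels and receptors 10 of 100 genes had such a peak (10%, 95% interval 4.90 to 17.6), and 6 by log2 fold change in the authors' deposited table. Kcnj4 (9.25), Kcnj12 (600 input and 4674 IP reads, 7.79), Ano6, a lipid scramblase (7.63), and Kcnj2 (205 and 1539, 7.51) were highest. With Kcnj15 (277 and 1797, 6.49), 4 of the 7 inward rectifier genes of the Kcnj stem with a well-covered peak had one. Grouping by letter stem was done after the values were seen, so this count describes and supports nothing. Adhesion genes had 12 of 108 (11.1%, 95% interval 5.88 to 18.6), led by Lrfn1, a synaptic organizer (8.33), Slitrk3 (8.01), Pcdh15 (7.87) and Plxna2, a semaphorin receptor (7.24). The count for adhesion genes was also 12 by log2 fold change in the authors' deposited table, with 4 genes in both. Solute carriers, membrane proteins of another kind, had 3 of 137 (2.19%, 95% interval 0.454 to 6.27): Slc8a3, a sodium-calcium exchanger (7.47), Slc7a4 (7.30) and the zinc exporter Slc30a1 (6.35).

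Chromatin regulators had 14 of 163 genes (8.59%), kinases 15 of 187 (8.02%) and phosphatases 8 of 114 (7.02%). The authors' deposited table put 11, 15 and 6 of them among the highest in log2 fold change (6.75, 8.02 and 5.26%, against 4.99% of all named genes). Sirt3 was the highest of the chromatin group with 2021 input and 17255 IP reads (8.54), although it encodes a mitochondrial deacetylase. Kmt2e (7.19), Bcorl1 (7.03) and Arid1b, a subunit of the BAF remodelling complex (1550 and 10810, 6.97), followed. Among kinases Rock1 had 240 and 1942 (8.09), Pik3r1 3502 and 27122 (7.75), Pik3ca, the catalytic subunit that Pik3r1 regulates, 1693 and 12232 (7.23) and Camkk2 303 and 2081 (6.87). The phosphatase group was led by regulatory or inactive members, Ppp1r26 (7.48), Ppp1r8 (6.82), Mtmr12 (6.53) and Ppp4r2 (6.47).

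Zinc finger genes made the largest group by count and, at the ratio of 6, stood near the share of all genes. Of 395 C2H2 zinc finger genes 25 had a high-ratio peak (6.33%, 95% interval 4.14 to 9.2). Zfp937 (102 input and 907 IP reads, 8.89), Klf13 (1956 and 14823, 7.58), Zbtb18, a repressor in cortical development (5427 and 40144, 7.40), and Zkscan17 (7.32) were highest. Of the 395, 36 were among the highest by log2 fold change in the authors' deposited table (9.11%), with 10 genes in both. These genes resemble one another, and the handling of reads matching several of them was not given in the sources used here. Other transcription factors had 6 of 157 (3.82%), led by Atf1 (7.21), the nuclear receptor Nr2f1 (6.97), Nfic (6.83) and Tbx3 (6.58).

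Genes of protein turnover had 17 of 289 (5.88%), with Usp47 (9.73), the F-box gene Fbxo46 (8.46), Usp10 (8.28) and the tripartite motif gene Trim7 (7.2) in front. Growth factor signalling had 4 of 69 (5.80%): Bdnf, Pik3r1, Pik3ca and Fgf14. The extracellular matrix group had 5 of 93 (5.38%), with the heparan sulfate sulfotransferases Hs6st1 (8.57) and Hs3st1 (6.49) ahead of Cspg5. By the ratio, all 3 groups stood near 5.26%. Genes named Tmem or Fam, which share a naming scheme and not a function, had 15 of 172 (8.72%), led by Tmem189 (7.80), Fam118a (7.54), the secreted kinase Fam20c (6.92) and Tmem42 (6.84). Among the highest in log2 fold change by the authors' deposited table were 6 of these 172 (3.49%). So were 1 of the 93 matrix genes (1.08%) and 7 of the 69 growth factor genes (10.1%), against 4.99% of all named genes.

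Groups of RNA control, cell division, cytoskeleton and traffic stood below 5.26%. Genes of mRNA decay, silencing and translation control had 4 of 99 (4.04%): Tnrc6b, a partner of Argonaute (7.24), the stress granule protein G3bp1 (7.08), Lsm10, of histone mRNA processing (6.42), and the nonsense-mediated decay factor Upf2 (6.09). Cell cycle genes had 3 of 77 (3.9%). These were the CDK inhibitor Cdkn2d (260 input and 1811 IP reads, 6.97), Ccnq (6.86) and Cdk9 (6.01), of which Cdk9 acts in transcript elongation. Small GTPases and their regulators had 8 of 172 (4.65%), with Rgs2, Arhgap12, Arhgap29 and Tbc1d24 highest. Rgs2, described above as a regulator of G protein signalling, entered by its symbol. Cytoskeleton and motor genes had 7 of 159 (4.40%), with Ankrd9, Ankrd6, Ankrd40 and Cep170 highest. The Ankrd genes entered by an ankyrin repeat symbol. Fmn2 and Syne1, described above and tied to the cytoskeleton, were not in that list. Membrane traffic genes had 4 of 143 (2.80%), Vamp5 (8.47), Exoc6 (7.46), Vps26c (6.50) and Sorl1 (6.16). The intervals of these 5 shares all included 5.26%.

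**Figure D5:**
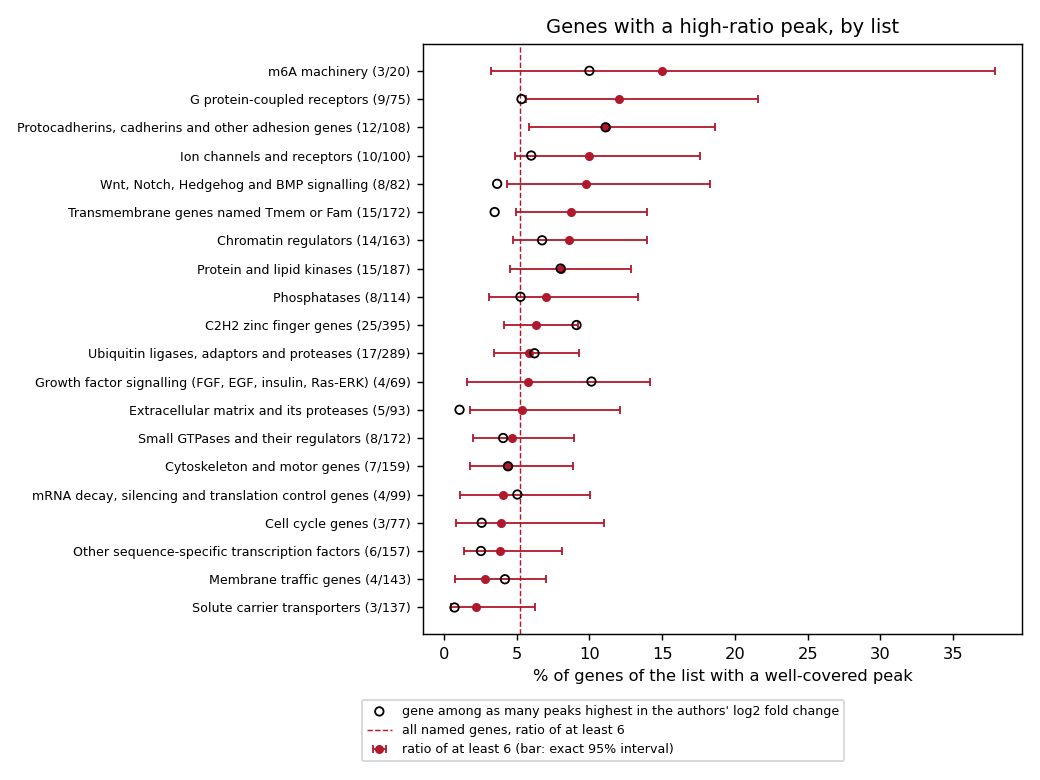
Percent of each group's genes with a well-covered peak that had a high-ratio peak (red points, bars for exact 95% intervals, genes with such a peak over genes with a well-covered peak in brackets) and percent among the 488 peaks highest in the authors' deposited log2 fold change (open circles), with a dashed line at 5.26% for all named genes. G protein-coupled receptors and adhesion genes have intervals that start above the line, at 5.64 and 5.88%.

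Letter stems gave a finer view of families, chosen after the values were seen. Besides Kcnj, they included Kmt with 3 of 7 genes, Rbm, RNA-binding motif proteins, with 6 of 26 (23.1%), and Fzd with 3 of 11 (27.3%). Zfp stood at 17 of 296 (5.74%) and Slc at 3 of 136 (2.21%). The Rbm genes were Rbm6, Rbm4b, Rbm15, Rbm26, Rbm15b and Rbm12b1, and those of Kmt were Kmt2e, Kmt5b and Kmt2d, histone methyltransferase family members. Trp53rka and Trp53rkb are near-identical copies, so how their reads were split is uncertain.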

How the data were processed

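Per the submitters' processing notes, bcl2fastq 2.17.1.14, Trimmomatic 0.32 and STAR 2.5.2a were used with GRCm38.p6, and GRCh38.p13 is also named. Peak caller, read counter and pooled libraries were not given in the sources used here. Per the file headers and the values, each peak had deposited whole-number counts of IP and input reads, a log2 fold change, p-values with their adjusted values, and a score equal to minus log2 of the adjusted p in all 21195 rows (tolerance 1e-06). Whether the counts are sums, means or rounded normalized reads of the libraries is unknown, so they were used only in ratios, whose binomial intervals take them as counts, and in no test.

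Ratios are plain quotients of the deposited counts. Intervals are exact Clopper-Pearson 95% intervals (scipy 1.17.1, pandas 2.3.3). The deposited gene identifiers were not in the RefSeq table, so peaks were named by position: an overlap of at least 50% of the shorter of peak and gene on the same strand, with protein-coding genes preferred. Where genes had no strand in the promoter table, the strand with 10 times the IP reads was used. A peak still ambiguous took the gene shared by all clearly placed peaks of its identifiers, within 10000 bases. This named 19436 peaks. The naming rule was set after the data were seen. It was tested only on simulated short peaks, each placed inside a protein-coding gene on the known strand of that gene. Long peaks and peaks with several identifiers were not simulated, so the test cannot show how well those were named.

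The peaks, lists and tests were chosen with earlier results of these data known. Named are the 15 highest ratios, the 10 peaks with the most IP reads, genes with 2 high-ratio peaks, the 3 longest and 3 shortest, peaks beside the thresholds, the 4 highest per list, the 3 highest in the first, middle and last bins of the gene, markers, and unnamed peaks by position. Other genes are named as values printed at the extremes or within a gene, chosen after they were seen. The planned comparison of knockout with control needed a column per library and was not made. No genome sequence, exon annotation or protein sequence was used here.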

Additional observations from a re-analysis of the deposited data

How the results depend on the processing

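The thresholds set the number of peaks: 1359 at a ratio of at least 5, 44 at 8, and 280 when the lower interval limit had to reach 6, with 166 of 488 shared with the ranking by deposited log2 fold change. Spans of at most 1000 bases made up 38.3% with at least 50 input reads and 43.2% at a ratio of 8, against 33.8%. The last of 10 bins of the gene held 52.3% when the 3′ end of the peak was placed instead of its midpoint. No share by the 3′ end is given for the other well-covered peaks, so that value has no comparison here. For spans of at most 1000 bases the last bin held 53.8% of midpoints, where the other well-covered peaks had 52.4%. C2H2 zinc finger genes were 8.22% of the genes at a ratio of 5 (99 of 1205) and 2.44% at 8 (1 of 41). They were 8.33% by the deposited log2 fold change, against 5.48% at a ratio of 6. Of all named genes with a well-covered peak they made up 4.56%, so they stood near that share only at some thresholds. The cause of these shifts was not tested. Input minimums of 50 and 200 reads, naming by any overlap and leaving out peaks with several identifiers or under a peak of the other strand moved no other result beyond its interval or, for counts, 1.5 times. The last of these, and the log2 fold change ranking for span, place, groups and other peaks, were chosen after seeing the data. No paired analysis was possible because the columns carry no genotype or replicate number, and for that reason the replicate block, other size factors and left-out replicates planned for knockout against control were not run.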
